A study of Mus musculus with 4 samples.

Results

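The interleukin-12 family is built from a small set of secreted subunits, and its genes Il12a, Il12b, Il23a, Il27 and Ebi3 were followed here in cDC1, the type 1 class of conventional dendritic cells, from mice. The genes were taken by symbol from the array's annotation and not by their values. They make 5 of 17537 named genes, read by 6 probe sets, of which Ebi3 has 2. Of the 5 genes, 4 reached a log2 signal of 5.43 on 1 array or more, as did 11086 genes in all. This limit is the median over every deposited value. Probe set 17398218 reads Il12a (chromosome 3), 17246091 reads Il23a (chromosome 10), 17496338 reads Il27 (chromosome 7), 17248654 reads Il12b (chromosome 11), and 17338642 and 17346074 read Ebi3 (chromosome 17). Il23a stayed below that limit on every array.

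The groups were XCR1-deficient (KO) cells given lipopolysaccharide (LPS) with recombinant mouse XCL1, KO cells given LPS alone, wild-type (WT) cells given LPS with XCL1, and WT cells given LPS alone. LPS, a bacterial ligand of Toll-like receptor 4, and XCL1, the chemokine ligand of XCR1, were each used at 100 ng/ml in complete RPMI medium. All cells were exposed to LPS, so no unstimulated baseline is among the groups, and the mice of all groups were C57BL/6, 10 weeks old and labelled female. Each group has 1 array, so the differences below carry no error, no test and no p-value. The word called marks a gene for which 2 arrays differ by 1.5-fold or more, or 0.58 on the log2 scale.

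Every member of the family is a pair of unlike chains. The helical chains p35 (Il12a), p19 (Il23a) and p28 (Il27) each bind a chain that resembles a soluble cytokine receptor, either p40 (Il12b) or EBI3 (Ebi3). p35 with p40 gives IL-12, p19 with p40 gives IL-23, p28 with EBI3 gives IL-27, and p35 with EBI3 gives IL-35. cDC1 are known as a main source of IL-12, which drives interferon-gamma production in T and NK cells.

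Array correlations across the 11086 genes ran from 0.983 to 0.993, which compares genes and not replicates. Of 12 cDC1 markers, 11 were named on the array and 10 passed the limit, while the integrin gene Itgae was below it on all arrays and Clec9a was not named. Xcr1 gave 5.11 and 5.54 on the KO arrays with LPS and XCL1 and with LPS, against 7.19 and 6.42 on the WT arrays. Markers of other cells were also measurable. The summed linear signal of 10 B cell markers was 11.02 and 11.04 in log2 on the KO arrays, against 11.58 and 11.52 on the WT arrays, and that of 8 T cell markers was 9.31 and 9.42, against 9.94 and 9.96. Sex-linked genes did not all match the female label. Xist, which is transcribed in female cells, gave 4.57 and 4.64 on the KO arrays and 7.91 and 7.95 on the WT arrays, while the Y-linked gene Eif2s3y gave 8.89 and 8.73 on the KO arrays and 8.80 and 8.57 on the WT arrays. The array names in the labels carry 2 prefixes, with 0 shared between the genotypes, so genotype, sex of the cells and whatever the prefix marks cannot be told apart in any KO against WT value. No result can be given without these arrays, because each group has only the 1.

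The proximal promoters of the receptor-like chains Il12b and Ebi3 are shown, and those of Il12a are not. This choice was made after the values of the genes were seen. Whether the promoter letters bear on any genotype difference was not tested. The promoter set used here covered 3 of the 5 members, Il12a, Il12b and Ebi3. The 250 bases before the start are given on the plus strand of GRCm38.p6, at chr11:44399813-44400062 for Il12b and chr17:55952373-55952622 for Ebi3, with motif matches in capitals.
Il12b: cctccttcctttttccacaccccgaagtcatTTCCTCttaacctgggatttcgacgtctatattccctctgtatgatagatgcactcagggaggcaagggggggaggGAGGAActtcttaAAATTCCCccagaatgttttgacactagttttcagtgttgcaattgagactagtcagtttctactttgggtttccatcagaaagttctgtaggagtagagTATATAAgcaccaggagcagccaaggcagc
Ebi3: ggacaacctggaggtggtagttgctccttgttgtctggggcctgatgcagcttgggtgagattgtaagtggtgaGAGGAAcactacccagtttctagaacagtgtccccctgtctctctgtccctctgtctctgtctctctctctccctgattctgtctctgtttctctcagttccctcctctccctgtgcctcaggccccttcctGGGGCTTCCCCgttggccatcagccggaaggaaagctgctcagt

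The Il12b window holds GGGAATTT on the opposite strand, 130 to 123 bases before the start, part of an NF-kB site followed by a run of T. These letters, chosen after the Il12b sequence had been read, occur on either strand in 0.843% of 32851 windows of the same length. Il12b also holds GAGGAA, a form of the PU.1 site, at 219 to 214 and 143 to 138 bases before the start (23.3% of windows), and the TATA form TATATAA at 30 to 24 bases (3.04%). The Ebi3 window holds overlapping matches to the NF-kB pattern GGGNNNNNCC at 44 to 34 bases before the start (45.8%), and GAGGAA at 176 to 171 bases. The Il12b window has no match to GGGNNNNNCC, and the Ebi3 window has none to GGGAATTT or TATATAA. The searched patterns GAAANNGAAA for IRF factors (2.98%), TTGCNNAA for C/EBP (9.56%) and TGANTCA for AP-1 or BATF (6.75%) had no match in either window. A match is a description of letters, and a missing match says only that these letters are not in this window.

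Il12b, the p40 chain of IL-12 and IL-23, had the largest genotype difference of the measured members, and it was lower in KO cells. Its log2 signal was 11.38 on the KO array with LPS and XCL1 and 11.25 on the KO array with LPS, against 11.88 and 11.91 on the matching WT arrays. Both KO arrays lay below both WT arrays, with 0.51 between the nearest, an order that 33.2% of genes past the limit show. With LPS the difference was -0.67, or 1.59-fold lower in KO, and it was the 1 call among the 4 measured members. Over all genes 1.01% were called lower in that pair and 2.02% were called in either direction. With LPS and XCL1 the difference was -0.51, or 1.42-fold lower in KO, which is short of 1.5-fold. By size the Il12b difference with LPS ranked 130 among 11086 genes, and among the 3094 genes with a mean signal of at least 8 it was the 6th lowest. With LPS and XCL1 it was the 60th lowest of these bright genes, and by size it ranked 663 among the 11086.

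**Figure D1:**
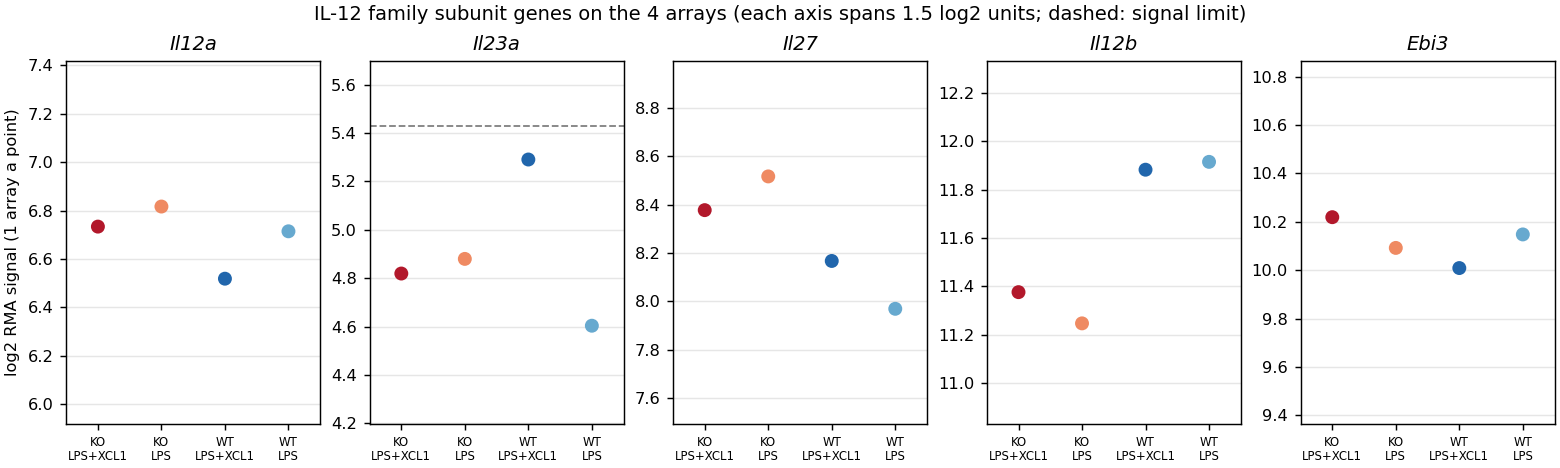
Log2 RMA signal of each subunit gene on the 4 arrays, 1 point an array, with KO left of WT; each vertical axis spans 1.5 log2 units and has its own range, so levels are not compared between genes, and the dashed line is the signal limit of 5.43. Both KO points lie below both WT points for Il12b, an order that 33.2% of all genes past the limit show. Both lie above for Il27 and, by 0.02 between the nearest, for Il12a, as for 18.9%. All Il23a points lie below the limit.

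The other receptor-like chain, Ebi3, did not share this difference. Its brighter probe set gave 10.22 and 10.09 on the KO arrays with LPS and XCL1 and with LPS, against 10.01 and 10.15 on the WT arrays, so the genotypes overlapped. KO minus WT was 0.21 with LPS and XCL1 and -0.06 with LPS. The second Ebi3 probe set stayed below the limit, at 4.68 and 4.99 on the KO arrays and 5.09 and 5.11 on the WT arrays, and gave -0.41 and -0.12. The probe sets thus gave opposite signs with LPS and XCL1, and their mean put that difference at -0.10. The sign with LPS also depended on scaling, since centring gave 0.05.

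Il27, the p28 chain of IL-27, was higher in KO cells with LPS, close to the threshold. It gave 8.38 on the KO array with LPS and XCL1 and 8.52 on the KO array with LPS, against 8.17 and 7.97 on the WT arrays. Both KO arrays lay above both WT arrays, as in 18.9% of genes past the limit. The difference was 0.55 with LPS, or 1.46-fold and the 28th highest of the 3094 bright genes, and 0.21 with LPS and XCL1. By size these differences ranked 296 and 4255 among 11086 genes. Subtracting each array's own median over the genes past the limit, here named centring, adds 0.10 to every genotype difference and moves the all-gene median with LPS to 0.05. It put Il27 with LPS at 0.65, past 1.5-fold, and Il12b with LPS at -0.56, just short of it. Cyclic loess between arrays, by contrast, called both, at 0.59 for Il27 and -0.71 for Il12b.

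Il12a, the p35 chain of IL-12 and IL-35, differed little. It gave 6.73 and 6.82 on the KO arrays with LPS and XCL1 and with LPS, against 6.52 and 6.71 on the WT arrays. The KO arrays lay above the WT arrays by 0.02 between the nearest. KO minus WT was 0.22 with LPS and XCL1, which ranked 4112 by size among all genes, and 0.10 with LPS.

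Il23a, the p19 chain of IL-23, gave dim signals only. They were 4.82 and 4.88 on the KO arrays with LPS and XCL1 and with LPS, and 5.29 and 4.60 on the WT arrays. The WT array with XCL1 was the brightest and the WT array without it the dimmest, with both KO arrays between them. All lie below the limit of 5.43, so the gene entered no count and no fold is given for it.

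The genotype differences of the chains are set side by side by cytokine. For IL-12, KO minus WT with LPS was 0.10 for Il12a and -0.67 for Il12b, and with LPS and XCL1 it was 0.22 and -0.51. For IL-27, the values with LPS were 0.55 for Il27 and -0.06 for Ebi3, and with LPS and XCL1 both chains were at 0.21. Of the 4 measured members, 3 were above 0 with LPS and XCL1 and 2 with LPS, with medians of 0.21 and 0.02, against -0.04 and -0.05 over all genes. With LPS and XCL1 the median was 0.06 with probe sets averaged, and the mean of the members was 0.03. No member was called with LPS and XCL1, where 3.48% of all genes were.

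XCL1 changed none of the 4 measured members 1.5-fold in either genotype. In KO cells, LPS with XCL1 minus LPS was -0.08 for Il12a, 0.13 for Il12b, -0.14 for Il27 and 0.13 for Ebi3. In WT cells, which carry the receptor, it was -0.20 for Il12a, -0.03 for Il12b, 0.20 for Il27 and -0.14 for Ebi3. The members' median was 0.02 in KO and -0.09 in WT, against 0.04 and 0.03 over all genes. Of all genes 1.01% were called in KO and 0.559% in WT, so 0 of 4 members is near the background. All of these values lay within the central 95% of genes, which ran between -0.37 and 0.41 in KO and between -0.36 and 0.37 in WT.

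**Figure D2:**
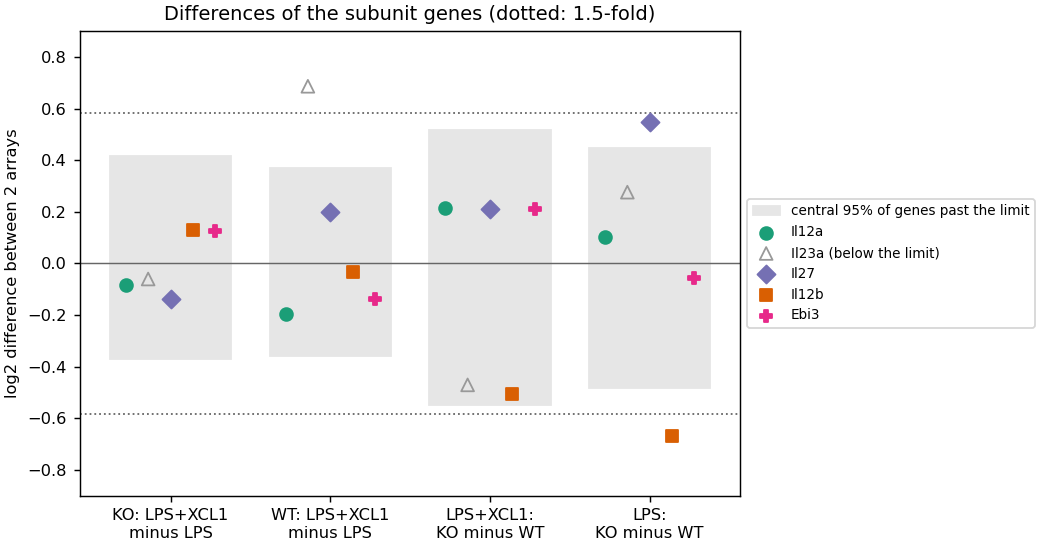
Log2 differences between 2 arrays for the 5 subunit genes in the XCL1 comparisons and the genotype comparisons; grey boxes are the central 95% of genes past the limit, dotted lines mark 1.5-fold, and the open triangle is Il23a, which is below the limit. Il12b and Il27 with LPS, at -0.67 and 0.55, lie outside the grey box on opposite sides.

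The XCL1 effect in WT minus that in KO, which combines all 4 arrays, was 0.34 for Il27, -0.27 for Ebi3, -0.16 for Il12b and -0.11 for Il12a. Il27 was higher with XCL1 in WT and lower with XCL1 in KO, while Il12b and the brighter Ebi3 probe set had the reverse signs. The mean of the Ebi3 probe sets put its value at 0.01, with the sign turned. None of these reached 1.5-fold, against 2.91% of all genes. The difference was not tested.

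Genes for the family's receptors were described next. The IL-12 receptor joins IL-12R-beta1 (Il12rb1) with IL-12R-beta2 (Il12rb2), the IL-23 receptor joins the same beta1 chain with IL-23R (Il23r), and the IL-27 receptor joins IL-27R-alpha (Il27ra) with gp130 (Il6st). All 5 genes passed the limit. Il12rb2 and Il23r were higher in KO cells under both treatments, and these were the 2 of 5 receptor genes called in each genotype pair, where 3.48% of all genes were called with LPS and XCL1 and 2.02% with LPS.

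Il23r gave 7.46 and 7.51 on the KO arrays with LPS and XCL1 and with LPS, against 6.67 and 6.51 on the WT arrays. The differences were 0.79 with LPS and XCL1 and 1.00 with LPS. Il12rb2 gave 8.62 and 8.84 on the KO arrays, against 7.98 and 7.86 on the WT arrays, with differences of 0.64 and 0.98. Both KO arrays lay above both WT arrays for these genes, as they did for Il12rb1 and Il6st and for 18.9% of all genes past the limit. Il12rb2 and Il23r lie next to each other on chromosome 6 in RefSeq's order of protein-coding genes. Serbp1, on the other side of Il12rb2, differed by 0.08 and 0.04.

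The other receptor chains were below the threshold. Il12rb1 gave 6.62 and 6.42 on the KO arrays against 6.10 and 6.17 on the WT arrays, a difference of 0.52 with LPS and XCL1 and 0.25 with LPS. Centring put the difference with LPS and XCL1 at 0.62, past the threshold. Il6st differed by 0.39 and 0.12. Il27ra ran the other way, at 6.82 and 6.56 on the KO arrays against 7.28 and 7.06 on the WT arrays, with differences of -0.45 and -0.50. XCL1 called no receptor gene in KO or in WT, with values between -0.22 and 0.26.

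**Figure D3:**
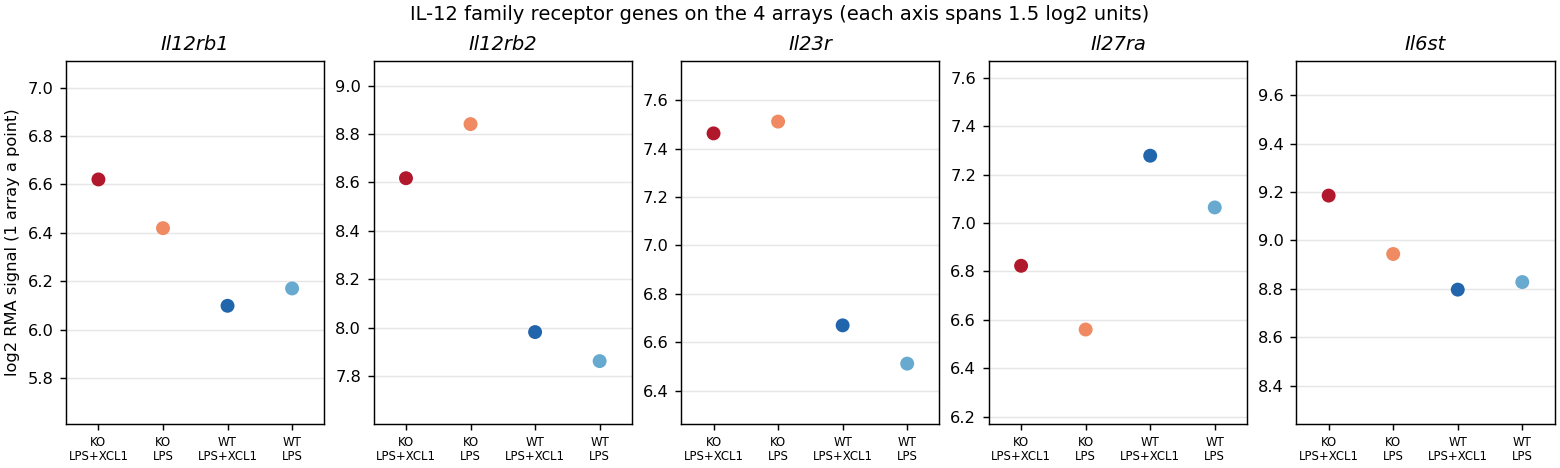
Log2 RMA signal of the 5 receptor genes on the 4 arrays, 1 point an array, with KO left of WT; each vertical axis spans 1.5 log2 units with its own range. Both KO points lie above both WT points for Il12rb1, Il12rb2, Il23r and Il6st, an order that 18.9% of all genes past the limit show, and below them for Il27ra, as for 33.2%.

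**Figure D4:**
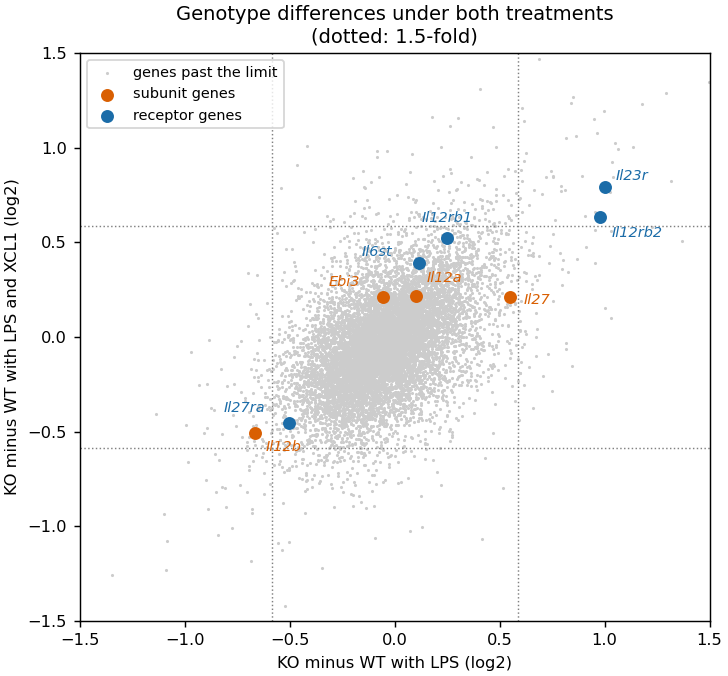
KO minus WT in log2 with LPS (horizontal) against LPS and XCL1 (vertical) for 11086 genes, of which 4 lie outside the axes; subunit genes are orange, receptor genes blue and dotted lines mark 1.5-fold. Il23r and Il12rb2 lie past 1.5-fold on both axes, while Il12b passes it on the horizontal axis only.

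Downstream of the receptors, JAK kinases phosphorylate STAT factors. None of 7 measured genes was called in any comparison. The kinase gene Jak2 had the largest genotype difference, 0.28 with LPS and XCL1 and 0.20 with LPS, followed by Stat3 at 0.19 and 0.11. Stat4, the main transducer of IL-12, differed by -0.02 and 0.07.

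Of 23 measured transcription factors known to act on the subunit genes, 0 were called in each comparison, which is near the background of 0.559% to 3.48% of all genes. The same holds for the other lists with 0 called. Rel, the c-Rel subunit of NF-kB known for its part in Il12b transcription, gave 12.52 and 12.43 on the KO arrays against 12.35 and 12.39 on the WT arrays. Irf8, a factor of cDC1 identity and of Il12b, gave 10.16 and 10.05 against 10.01 and 10.04. Spi1, which encodes PU.1, differed by -0.07 with LPS and XCL1 and -0.12 with LPS. Jun and Irf7 had the largest differences of the list, with Jun at 0.40 and 0.20 and Irf7, an interferon-induced factor, at 0.40 and 0.37. Levels of a factor's mRNA do not measure its activity.

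Of 21 measured genes of LPS recognition, 2 were called in any comparison. Each comparison alone called 0.559% to 3.48% of all genes, and the share called in any of them was not computed. Ly96, which encodes the LPS co-receptor MD-2, was called lower with XCL1 in KO, at 9.36 against 10.30 without it. In WT it gave 9.90 with XCL1 and 10.15 without. Irak1, a kinase below MyD88, was called lower in KO with LPS and XCL1, at 7.68 against 8.45 in WT, and with LPS it gave 7.95 in KO and 8.30 in WT. Tlr4 itself lay below the limit on all arrays.

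Genes that restrain or amplify IL-12 production were not called in any comparison, in 0 of 19 inhibitors and 0 of 12 inducers measured. The inhibitor Bcl3, an atypical I-kB protein, differed by 0.35 with LPS and XCL1 and -0.12 with LPS, and Socs2, a suppressor of cytokine signalling, by 0.33 and 0.32. Il10, whose product limits p40 expression, gave 6.14 and 6.00 on the KO arrays and 6.22 and 6.23 on the WT arrays. Among inducers, Il15 was at 0.52 and 0.47 and the interferon-gamma receptor gene Ifngr1 at -0.44 and -0.25, while Cd40, the receptor for T cell help, was at 0.04 and -0.06.

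Other cytokine genes differed in both directions. Il6, a helical relative of the p35 and p28 chains, was called higher in KO with LPS and XCL1, at 10.47 against 9.77 in WT, and gave 10.36 against 9.94 with LPS. Osm, another relative, differed by 0.26 and -0.05. Of 17 other LPS-induced cytokine and chemokine genes past the limit, 3 were called higher and 1 lower in KO with LPS and XCL1, and 0 higher and 1 lower with LPS. Over all genes 3.48% were called in either direction with LPS and XCL1 and 2.02% with LPS. The called genes among the 17 were Cxcl11 (0.89), Il6 (0.69) and Il1a (0.64) on the high side, and the chemokine Ccl17 on the low side (-0.63 with LPS and XCL1 and -0.66 with LPS). Tnf differed by -0.20 and -0.21. In all, 5 of the 17 were below 0 with LPS and XCL1 and 8 with LPS. The median of these 17 genes was 0.31 with LPS and XCL1 and 0.105 with LPS, against -0.04 and -0.05 over all genes.

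Among genes that IL-12, IL-23 and IL-27 are known to regulate in responding cells, Ifng was the 1 of 12 called, and it was higher in KO cells while Il12b was lower. It was called in both genotype pairs, where 3.48% of all genes were called with LPS and XCL1 and 2.02% with LPS. Ifng, which encodes interferon-gamma, gave 9.20 and 9.21 on the KO arrays and 8.05 and 8.26 on the WT arrays. Il18, a cytokine that acts with IL-12, differed by 0.48 with LPS and XCL1 and 0.24 with LPS.

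Markers of other cells moved with genotype in the direction of Il12b or against it, and their part in the Il12b, Il27 and receptor values was not tested. All 10 measured B cell markers and all 8 T cell markers were below 0 in KO minus WT in both pairs, with medians of -0.53 and -0.44 for B cells and -0.35 and -0.46 for T cells. Among 7 plasmacytoid DC markers 4 were below 0 in each pair, with medians of -0.49 and -0.35. Their summed level ran the other way, at 12.01 and 11.86 in KO and 11.87 and 11.82 in WT. A summed level weighs bright genes most. Here Bst2, one of the brightest, gave 10.79 and 9.82 in KO and 10.00 and 9.52 in WT. NK cell markers, from a cell type that carries IL-12 receptors, had medians of -0.24 and -0.21 over 6 measured genes, with a summed level of 10.31 and 10.30 in KO and 10.23 and 10.21 in WT. Klrk1, the brightest NK cell marker, gave 9.55 and 9.57 in KO and 9.20 and 9.22 in WT. Of the 6, 4 were below 0 with LPS and XCL1 and 5 with LPS. Neutrophil markers ran higher in KO, with 7 of 8 above 0 in both pairs and summed levels of 10.77 and 10.58 in KO and 10.18 and 10.27 in WT. All 3 measured erythroid markers were also higher in KO, with summed levels of 8.82 and 8.87 in KO and 7.79 and 7.79 in WT. The summed levels include named markers below the limit, so they cover 8 NK cell, 10 neutrophil and 5 erythroid genes. The summed level of the 11 named cDC1 markers was 12.18 and 12.18 in KO and 12.20 and 12.19 in WT. Of the 10 past the limit, 7 were below 0 with LPS and XCL1 and 6 with LPS, with medians of -0.17 and -0.13. Macrophage and monocyte markers had medians of 0.09 and 0.08 over 12 measured genes, with 7 above 0 in each pair. Fcgr1 differed most among them, at 1.19 and 1.00. Markers of type 2 conventional dendritic cells had medians of -0.01 and -0.24 over 5 measured genes, with 2 and 1 above 0. Cd209a, of that list, was at 0.62 and -0.01. In such bulk samples fewer cells of a type and less RNA per cell cannot be told apart.

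The genes whose 4 signals ran most like those of Il12b were Ap1ar, Spib, Ptprs, Dennd5b and Eef1akmt1. Likeness was the Euclidean distance between signals centred on each gene's own mean over the 4 arrays, among 890 other genes that spanned at least 1.5-fold. Distances ran between 0.03 for Ap1ar and 0.07 for Eef1akmt1. Spib, an ETS family factor gene, gave 6.79 and 6.67 on the KO arrays with LPS and XCL1 and with LPS, against 7.26 and 7.33 on the WT arrays. Ptprs, a receptor-type phosphatase gene, gave 6.06 and 5.95 against 6.54 and 6.63. With 4 arrays many genes can share such an order, so the list is a description. The signals of Il27, Il12a and Ebi3 spanned less than 1.5-fold, and no like genes were sought for them.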

How the data were processed

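The authors deposited log2 signals, summarised by RMA to one value per gene-level probe set, for 4 mouse MoGene-2_0-st arrays, per the labels' descriptions. RMA corrects background and makes array distributions alike, so a shift of most genes one way cannot be seen. Which software made them, in which version and on which annotation, is not given in the sources used here. Array medians ran between 5.40 and 5.44.

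Of 41345 probe sets, 23521 had 1 gene symbol in the platform annotation and 1814 had several, which were left out, as were olfactory receptors, antigen receptor segments, small RNAs and predicted genes. RefSeq (GRCm38.p6) matched 23328 by gene ID and changed 0 symbols. Where several probe sets read 1 gene, the brightest by mean signal stood for it, and a gene counted where at least 1 array reached 5.43. That limit is no measured background.

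All comparisons are log2 differences between single arrays, so no test was run and the number of arrays limits the precision. Where nothing says that samples came from separate animals, differences may be technical. The members, gene lists, rules and alternatives were chosen with earlier results of these data known. Named were the 5 members, list genes past 1.5-fold (at least 2 a list), and the 5 genes most like a member that spanned 1.5-fold. All receptor genes, Stat4, Rel, Irf8, Spi1, Tlr4, Il10, Cd40 and Tnf were added after their values were seen. Counting and likeness were run on simulated data with planted changes, which checks the code and not the results here. A planted 1.5-fold change sits at the threshold itself, and the planted likes were near copies. Alternatives were 2-fold calls, no or a stricter signal limit (6.91), dim signals raised to the limit, cyclic loess (limma 3.58.1, span 0.7, 3 iterations), quantile normalization, centring, the mean of probe sets or of members, and predicted genes kept. Python 3.11.15 and R 4.3.3 were used.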

Additional observations from a re-analysis of the deposited data

How the results depend on the processing

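With 1 array per group, neither a replicate nor a batch could be left out. No paired analysis was possible because the labels give no replicate numbers and each group has 1 array. Over 125 recomputed member values, 118 moved by less than the spread of all genes in that comparison, which was 0.155 to 0.237 in log2. The other 7 moved by more, and 0 reversed as calls. Only a difference of at least 1.5-fold before any alternative could be labelled reversed. The smaller Ebi3 differences kept their sign under 4 of 5 alternatives in each comparison except XCL1 in WT, where all 5 kept it. All 550 values of other named genes moved by less than that spread. Many of these values could not move, so the counts overstate how stable they are. Averaging probe sets changes nothing for a gene with 1 probe set. Raising dim signals changes nothing for a gene above the limit on all arrays. Il12b with LPS ran between -0.71 and -0.56 and passed 1.5-fold under 4 of 5 alternatives. Il27 with LPS ran between 0.55 and 0.65 and passed under 2 of 5. Raising dim signals and averaging probe sets could move neither gene, since each has 1 probe set and lay above the limit on all arrays. Of the rest, Il12b passed under cyclic loess and quantile normalization and not under centring. Il27 passed under cyclic loess and centring and not under quantile normalization. Of the members, 2-fold calls left 0 in KO over WT with LPS, cyclic loess gave 2 (Il12b and Il27), and dropping the signal limit added 1 (Il23a) both to XCL1 in WT and to the difference of XCL1 effects. Centring called Il27 in place of Il12b. Averaging probe sets put Ebi3 at -0.09 for XCL1 in KO. Counts over all genes followed the limits. XCL1 in KO called 112 genes, and 6 at 2-fold, 222 with no limit, 27 with the stricter limit, 66 with dim signals raised and 183 with predicted genes kept. XCL1 in WT called 62, and 2, 186, 11, 27 and 96 under the same settings. KO over WT with LPS and XCL1 called 386, and 42 at 2-fold and 197 with the stricter limit. KO over WT with LPS called 224, and 24 at 2-fold, 352 with no limit and 105 with the stricter limit. The difference of XCL1 effects called 323, and 22 at 2-fold, 755 with no limit, 74 with the stricter limit and 208 with dim signals raised. Centring moved the genotype splits to 208 higher and 52 lower with LPS, against 112 and 112, and to 335 and 93 with LPS and XCL1, against 187 and 199. It gave 25 higher and 88 lower for XCL1 in KO, against 52 and 60, and 13 and 65 in WT, against 25 and 37. Quantile normalization gave 25 and 26 in WT, and cyclic loess 30 and 28.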
